A study of Mus musculus with 8 samples.

Results

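The transcripts of 9 transcription factors that direct the myeloid and dendritic cell (DC) lineages were followed across miR-155 genotype and LPS stimulation. The 9 genes, Sfpi1 (the array's name for Spi1, which encodes PU.1), Cebpa, Cebpb, Cebpd, Klf4, Klf2, Id2, Bcl11a and Tcf4, were taken by gene name from the array annotation. They are 9 of the 15401 genes that could be tested, and they are covered by 18 of the 41174 distinct probes of the array. All 9 passed the filter on dim signals, and 17 of the 18 probes did. Cells were grown from the whole bone marrow of male C57BL/6Jax mice, wild type (WT) or lacking miR-155 (KO), for 7 days in medium with GM-CSF at 40 ng/mL, a growth factor that yields DC in culture. A part of the cells then received LPS, a bacterial cell wall component, at 100 ng/mL for 16 h. The unstimulated groups were the CD86-negative sorted DC of untreated cultures, and the LPS groups were the adherent, CD86-positive sorted DC of treated cultures. Each of the 4 groups, WT unstimulated, WT LPS, KO unstimulated and KO LPS, had 2 arrays. The LPS comparisons thus set 1 sort gate against another as well as stimulated against unstimulated cells. The labels name replicates but not separate animals or cultures, so p-values measure only the spread between these samples, which may be technical. The labels do not say how the miR-155 gene was inactivated, and the array has no probe named for miR-155 or its host transcript, so the deletion itself could not be checked.

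PU.1 is an Ets-family factor that opens enhancers in all myeloid cells and is needed to form macrophages, neutrophils and DC. The C/EBP proteins are leucine zipper factors: C/EBPα commits progenitors to the granulocyte and monocyte lineages, while C/EBPβ and C/EBPδ act in the inflammatory gene program that follows Toll-like receptor signals. KLF4 and KLF2 are zinc finger factors, KLF4 promoting monocyte differentiation and KLF2 known for holding myeloid and lymphoid cells in a quiescent state. Id2 has no DNA-binding region of its own and binds E proteins to block them, which favours conventional DC, whereas the E protein E2-2, encoded by Tcf4, and the zinc finger factor Bcl11a favour plasmacytoid DC. Fewer cells of a type and less RNA per cell cannot be told apart in these sorted populations measured in bulk.

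The share of spots above background ranged over the arrays from 50.8% to 58.3%, with 0 spots saturated. The arrays came on 2 slides: array 2 of WT LPS and of KO unstimulated shared slide 1 with the WT unstimulated pair, and the other 4 arrays were on slide 2. Values below are scaled log2 signals: the log2 of the processed spot signal minus the 75th percentile of its array, so that 0 is the level of that percentile. They are given for the probe with the highest mean signal of each gene, and levels of different probes are not set against each other. The sort marker Cd86, a co-stimulatory ligand, went from -0.65 and 0.59 in WT unstimulated to 4.05 and 3.59 in WT LPS, and from -0.45 and 0.54 to 4.33 and 3.52 in KO, matching the gates. Summed signals of 8 conventional DC markers, on a linear scale where the 75th percentile is 1, lay between 948 and 1420 on the 8 arrays and overlapped between the states. In those 8 genes Ccr7 was called higher and Cd209a lower after LPS.

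Markers of other cells moved with LPS in several lists, and their part in the results below was not tested. The 10 macrophage markers summed to 193 to 261 in unstimulated and 685 to 1070 in LPS arrays, with Marco called higher in both genotypes, Fcgr1 in WT and Emr1 in KO, and Mrc1, Cd163, C1qa, C1qb and C1qc called lower in both genotypes. Most of each macrophage LPS sum came from Marco, with scaled log2 signals of 8.68 and 9.66 in WT and 9.1 and 9.43 in KO. The median log2 change of the 10 markers was -1.75 in WT and -1.38 in KO. The monocyte sums were 45.7 to 102 before and 20.4 to 56.2 after LPS. The stromal sums were 0.266 to 0.695 before and 4.34 to 14 after. Of the 5 stromal genes tested, 4 were called higher in WT and 3 in KO. On the unstimulated arrays, 3 of the 5 in WT and 2 in KO were not well above background on either array. The erythroid sums were 0.246 to 0.454 before and 7.9, 0.586, 6.52 and 0.886 after, in the order WT LPS 1, WT LPS 2, KO LPS 1 and KO LPS 2. Sums went from 1.86 to 3.23 down to 0.0795 to 0.174 for eosinophils, and from 0.983 to 3.49 down to 0.331 to 0.488 for mast cells and basophils. For NK cells they went from 0.17 to 0.284 down to 0.023 to 0.0443. The eosinophil and NK sums rest on 2 tested genes each. Of these, 1 eosinophil gene in each genotype, and 1 NK gene in WT and 2 in KO, were not well above background on either LPS array. The same held for 4 of 7 mast cell and basophil genes in WT and 2 in KO. In that list 1 gene was called higher and 4 lower in each genotype. The neutrophil sums of 4.78 to 10.2 before and 8.38 to 10.1 after overlapped, as did the T cell sums of 0.295 to 0.368 and 0.229 to 0.332. Of their markers, Lck was called higher and Cd2 and Lat lower in both genotypes, Camp was called higher in both, and Ctsg was called lower in WT and Ltf in KO. These calls set a bright state against a dim one. Lck and Camp were not well above background on any unstimulated array. Neither were Cd2, Lat, Ctsg and the macrophage marker Cd163 on any LPS array, nor Ltf on the KO LPS arrays.

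Between unstimulated and LPS cells, 3 of the 9 factors changed in WT and 4 in KO. Klf4 and Cebpa fell and Tcf4 rose in both genotypes, and Cebpb rose in KO. The test was a linear model over all 8 arrays (limma), two-sided, with Benjamini-Hochberg adjustment over all genes tested and a call at an adjusted p under 0.05. Across all genes, 20.2% were called for the LPS response in WT and 20.8% for that in KO, so 3 and 4 of 9 compare with a background of about 1 gene in 5. The median change of the 9 genes was -0.40 in WT and -0.30 in KO, against 0.00 and 0.05 for all genes tested. The arrays of the 2 states did not overlap for 5 of the 9 genes in WT and for 6 in KO, against 62.0% and 63.7% of all genes with a value on every array. Without WT LPS array 1 only Klf4 remained called in WT, and without KO unstimulated array 2 only Klf4 remained called in KO. With each probe fitted on its own, 4 factors were called in WT and 5 in KO, with Klf2 added by the dimmer of its probes.

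**Figure D1:**
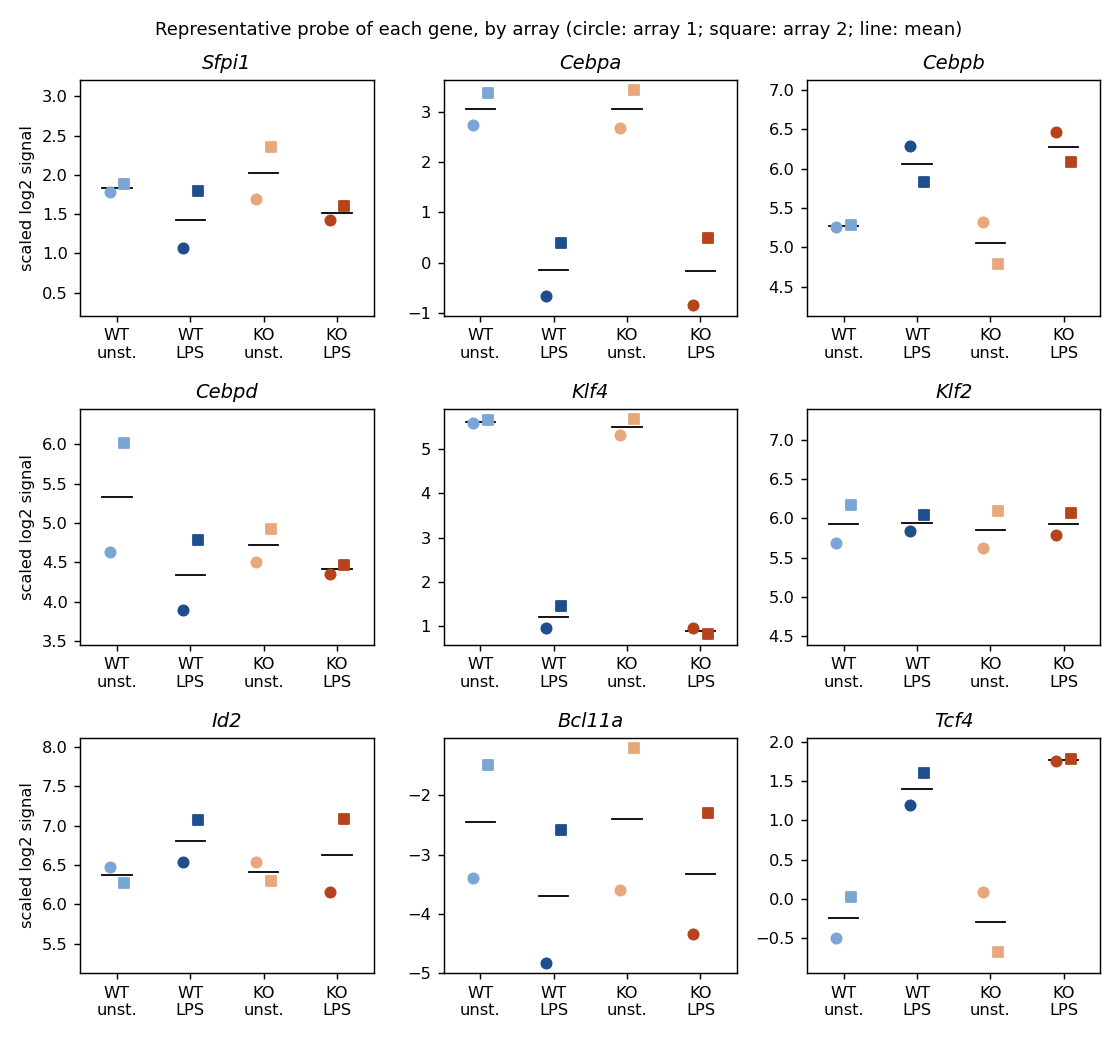
Scaled log2 signal (vertical axis, 0 at the 75th percentile of the array) of the representative probe of each of the 9 genes in the 4 groups, with a circle for array 1, a square for array 2 and a line at their mean. Each panel has its own range. Klf4 sits between 5.31 and 5.67 on the 4 unstimulated arrays and between 0.83 and 1.46 on the 4 LPS arrays, and the square lies above the circle for Bcl11a in every group.

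Klf4 had the largest change of the 9 genes. Its scaled log2 signal was 5.58 and 5.65 in WT unstimulated, 0.96 and 1.46 in WT LPS, 5.31 and 5.67 in KO unstimulated, and 0.96 and 0.83 in KO LPS. The LPS arrays lay far below the unstimulated ones in both genotypes, with a gap several times the spread within any group. The log2 change was -4.41 ± 0.28 in WT (SE, n = 2 arrays per group; limma adjusted p = 0.000373), a 21.2-fold fall. In KO it was -4.60 ± 0.28 (adjusted p = 0.000247), a 24.2-fold fall. On the unscaled intensity scale the same probe read 23900 to 35100 before LPS and 1020 to 1470 after it, well above background on all 8 arrays. By fitted change, Klf4 stood at rank 127 among the falls of 15401 genes in WT and at rank 114 of 15400 in KO. Its only probe lies at chr4:55540833-55540892 on the minus strand (mm9), the build in the file headers.

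Klf2, the paralogue of Klf4, gave different answers from its 2 probes. The representative probe, at chr8:74843761-74843820 (mm9, plus strand), begins at base 524 of the transcript. Its readings were 5.68 and 6.17 in WT unstimulated, 5.84 and 6.04 in WT LPS, 5.62 and 6.09 in KO unstimulated, and 5.79 and 6.07 in KO LPS. All 4 groups overlapped. The log2 change was 0.01 ± 0.31 in WT (95% interval -0.72 to 0.74; limma adjusted p = 0.98) and 0.08 ± 0.31 in KO (interval -0.65 to 0.81; adjusted p = 0.883). The other probe, at chr8:74845137-74845196, begins at base 1399, nearer the 3′ end. It read 2.64 and 3.53 in WT unstimulated, 0.04 and 0.15 in WT LPS, 2.61 and 3.41 in KO unstimulated, and 0.71 and -0.32 in KO LPS. No LPS array of that probe overlapped an unstimulated one. It fell by 2.99 ± 0.48 on the log2 scale in WT (limma over all 23738 probes, adjusted p = 0.00723) and by 2.81 ± 0.48 in KO (adjusted p = 0.00851). Averaging the probes gave a called fall of Klf2 in each genotype, -1.49 in WT (adjusted p = 0.0282) and -1.37 in KO (adjusted p = 0.0361).

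The flat Klf2 probe is shown because its base composition is unusual for the array. Of its 60 bases 78.3% are G or C, a share reached by 0.0364% of the 41174 probes, while the probe that fell has 43.3%.
Klf2 probe from base 524: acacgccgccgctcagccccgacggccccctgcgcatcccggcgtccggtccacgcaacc
Whether the composition bears on the different readings was not tested.

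Among the C/EBP factors, Cebpa fell about as much in each genotype. Its scaled log2 signal was 2.75 and 3.37 in WT unstimulated, -0.67 and 0.39 in WT LPS, 2.68 and 3.43 in KO unstimulated, and -0.84 and 0.50 in KO LPS. Every LPS array lay below every unstimulated array. The log2 change was -3.20 ± 0.58 in WT (limma adjusted p = 0.0111), a 9.19-fold fall, and -3.22 ± 0.58 in KO (adjusted p = 0.01), a 9.35-fold fall. The second probe of the transcript, at chr7:35905361-35905420 (mm9, plus strand) against chr7:35906517-35906576 for the representative one, fell by 2.93 ± 0.51 in WT and by 2.97 ± 0.51 in KO. The WT call was lost without WT unstimulated array 2 (adjusted p = 0.0548) or WT LPS array 1 (0.0595). The KO call was lost without KO unstimulated array 2 (0.0705) and within slide 2 alone (0.13).

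Cebpb moved the other way. The scaled log2 signal was 5.26 and 5.28 in WT unstimulated, 6.29 and 5.83 in WT LPS, 5.32 and 4.79 in KO unstimulated, and 6.47 and 6.09 in KO LPS. All LPS arrays lay above all unstimulated arrays. The change was 1.23 ± 0.31 in KO (limma adjusted p = 0.0346), a 2.34-fold rise, and 0.79 ± 0.31 in WT (adjusted p = 0.125), which was not called. The difference between these responses, 0.44 ± 0.44 (95% interval -0.62 to 1.49; adjusted p = 1), did not pass the test either, so the call in KO alone does not separate the genotypes. The KO call was lost under 8 of 14 other settings and 5 of 8 single-array omissions, with adjusted p from 0.0151 to 0.686 over all 22. The second probe, at chr2:167515309-167515368 (mm9, plus strand), changed by 0.61 ± 0.36 in WT and 0.55 ± 0.36 in KO and was not called.

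Cebpd, the partner of Cebpb in the inflammatory program, was not called. The arrays read 4.63 and 6.02 in WT unstimulated, 3.89 and 4.79 in WT LPS, 4.50 and 4.93 in KO unstimulated, and 4.35 and 4.47 in KO LPS. The WT arrays overlapped because the unstimulated pair lay 1.40 apart. It changed by -0.98 ± 0.52 in WT (limma adjusted p = 0.229) and -0.30 ± 0.52 in KO (adjusted p = 0.719).

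The representative Cebpb probe, at chr2:167515847-167515905, contains the 7 bases that pair with the seed of miR-155, the microRNA missing in KO cells. Cebpb has been described as a direct target of miR-155, which binds it in the 3′ untranslated region. The mature microRNA (RefSeq, GRCm38.p6, chr16:84714143-84714165, plus strand) is printed with bases 2 to 8, the seed, in capitals, and 30 bases of the probe with the matching 7 bases in capitals.
miR-155-5p: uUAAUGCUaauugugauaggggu
Cebpb probe around the match: tttccgtttcgAGCATTAaagtgaagacat
The base after the match is an A, which stands opposite base 1 of the microRNA. Of all 41174 probes, 175 (0.425%) hold these 7 bases, and of the 18 probes of the 9 factors this is the only 1. Cebpb at this probe differed between KO and WT by -0.22 ± 0.31 before LPS (95% interval -0.96 to 0.53) and by 0.22 ± 0.31 after it (interval -0.52 to 0.96), with adjusted p = 1 in each. Mean levels after LPS were 6.28 in KO and 6.06 in WT. In the 64 tested genes whose representative probe holds the match, none was called between genotypes, and their median difference after LPS was 0.16, against -0.01 for all genes. Before LPS these medians were -0.07 and -0.04. A probe with the match shows where the array reads, not where the microRNA acts.

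Sfpi1, the PU.1 gene, was not called. It read 1.78 and 1.88 in WT unstimulated, 1.07 and 1.79 in WT LPS, 1.69 and 2.35 in KO unstimulated, and 1.42 and 1.61 in KO LPS. Only the KO groups did not overlap. It changed by -0.40 ± 0.35 in WT (95% interval -1.24 to 0.44; limma adjusted p = 0.468) and -0.50 ± 0.35 in KO (interval -1.34 to 0.33; adjusted p = 0.366). Its probe spans a splice junction, with ends 13788 bases apart at chr2:90939665-90953452 (mm9, plus strand).

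Of the factors that separate conventional from plasmacytoid DC, Tcf4 rose with LPS. Its scaled log2 signal was -0.50 and 0.03 in WT unstimulated, 1.20 and 1.61 in WT LPS, 0.09 and -0.67 in KO unstimulated, and 1.76 and 1.78 in KO LPS. All 4 LPS arrays lay above all 4 unstimulated arrays. The log2 change was 1.65 ± 0.36 in WT (limma adjusted p = 0.0202), a 3.13-fold rise, and 2.06 ± 0.36 in KO (adjusted p = 0.00886), a 4.17-fold rise. A second probe, which begins at base 2590 of the transcript, rose by 1.85 ± 0.33 in WT and 1.82 ± 0.33 in KO. The third, at base 856 across a 54577-base span of the gene, changed by 0.38 ± 0.8 in WT and 1.91 ± 0.8 in KO and was not called. The WT call was lost with normexp background correction (adjusted p = 0.224), with the slide as a block (0.0596), within slide 1 (0.0885), with the mean of the gene's probes (0.0623) and without WT unstimulated array 1 (0.0943), WT LPS array 1 (0.0587) or WT LPS array 2 (0.106). The KO call was lost with normexp background correction (0.149), within slide 2 (0.0827) and without KO unstimulated array 2 (0.0507). Beside this rise, the plasmacytoid DC markers summed to 19.8 to 35.6 before and 178 to 284 after LPS, and only Bst2 of the 7 tested was called. Most of each sum came from Bst2, with scaled log2 signals of 7.74 and 8.08 in WT LPS and 7.91 and 7.38 in KO LPS. The defining marker Siglech, and Ly6d, did not pass the filter on dim signals.

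Id2, the inhibitor of E2-2, was not called. On the same scale it read 6.47 and 6.27 in WT unstimulated, 6.54 and 7.07 in WT LPS, 6.54 and 6.29 in KO unstimulated, and 6.16 and 7.08 in KO LPS. The LPS arrays lay slightly above the unstimulated ones in WT and overlapped them in KO. The fitted change was 0.43 ± 0.38 in WT (95% interval -0.46 to 1.32; limma adjusted p = 0.465) and 0.21 ± 0.38 in KO (interval -0.68 to 1.1; adjusted p = 0.731). Neither of the other 2 probes was called, and their changes ran from -0.43 to 0.62.

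Bcl11a, a plasmacytoid and B cell factor, was read near background and well above it on 7 of 8 arrays. Its arrays read -3.40 and -1.49 in WT unstimulated, -4.82 and -2.59 in WT LPS, -3.60 and -1.21 in KO unstimulated, and -4.34 and -2.30 in KO LPS. The states overlapped in both genotypes, and the spread within each group exceeded the change between states. Among arrays of the same number and genotype, the LPS array was always the lower one. The log2 change was -1.26 ± 1.18 in WT (95% interval -4.06 to 1.54; limma adjusted p = 0.497) and -0.91 ± 1.18 in KO (interval -3.72 to 1.89; adjusted p = 0.634). The second probe past the filter changed by -2.04 ± 1.39 and -1.53 ± 1.39, and the third probe was too dim to be tested. B cell markers summed to 47.2 to 62.1 before and 131 to 210 after LPS, and most of each sum came from Blnk. Blnk was called higher and Ighm lower (in WT LPS, Ighm was well above background on 1 of 2 arrays), and Cd79a, Ms4a1, Pax5 and Ebf1 did not pass the filter.

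Bcl11a separated the arrays by replicate number more than by state or genotype. Array 1 of a group was below array 2 by 1.91 in WT unstimulated, 2.23 in WT LPS, 2.39 in KO unstimulated and 2.03 in KO LPS. With the replicate number as a block, its fall with LPS was called in both genotypes (limma adjusted p = 0.0128 in WT and 0.0353 in KO). The labels do not say that this number marks pairs. Of 15353 genes with a value on every array, 79 (0.515%) were lower on array 1 by more than 1 in all 4 groups, and 13 (0.0847%) by more than 1.5. Cebpa, Cebpd, Klf2 and Sfpi1 were also lower on array 1 in all 4 groups, as were 17.3% of genes. For Cebpa the gaps ran from 0.62 to 1.34. Id2, Cebpb, Klf4 and Tcf4 had no common order. Snrk followed Bcl11a most closely (Pearson r = 0.9959 over the 8 arrays), among 12326 genes well above background on every array.

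**Figure D2:**
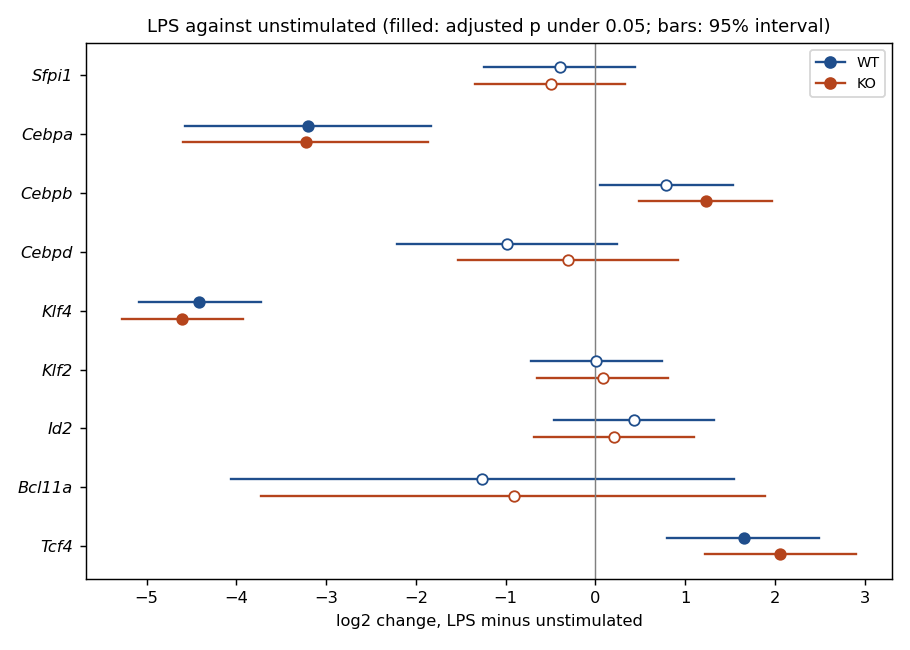
Fitted log2 change with LPS (horizontal axis, LPS minus unstimulated) of the 9 genes in WT and KO, with 95% intervals from limma and filled points for adjusted p under 0.05. Klf4 and Cebpa lie below 0 and Tcf4 above 0 in both genotypes, and the widest intervals are those of Bcl11a.

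**Figure D3:**
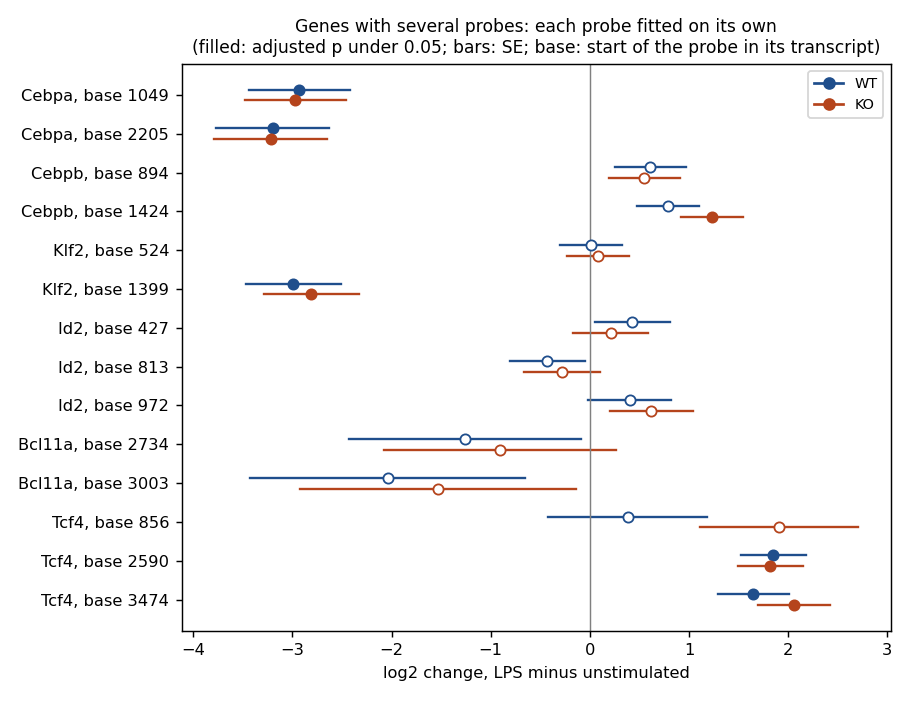
Fitted log2 change with LPS (horizontal axis) of each of the 14 tested probes of the 6 genes with several, labelled by the base at which the probe begins, with bars for the SE and filled points for adjusted p under 0.05. The Klf2 probes stand apart, at 0.01 and -2.99 in WT, whereas the Cebpa probes lie together at -2.93 and -3.20.

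The genotype comparison asks whether loss of miR-155 altered these factors before or after LPS, and none of the 9 was called in it. Called genes made up 0.24% of all genes in the unstimulated state, 0.026% after LPS, 0.143% for the mean of the states and 0.0455% for the difference between the LPS responses. At an unadjusted p under 0.05 the count of the 9 factors was also 0 in each of these 4 limma comparisons, and the lowest unadjusted p was 0.276. Averaged over both states, KO differed from WT by -0.22 for Klf4 (95% interval -0.70 to 0.26), -0.27 for Cebpd (-1.14 to 0.60), -0.02 for Cebpa (-0.99 to 0.95) and 0.00 for Cebpb (-0.52 to 0.53). The differences were 0.14 for Sfpi1 (-0.45 to 0.73), -0.04 for Klf2 (-0.55 to 0.48) and -0.07 for Id2 (-0.70 to 0.56). For Tcf4 the difference was 0.16 (-0.44 to 0.75) and for Bcl11a 0.21 (-1.77 to 2.20). These intervals leave room for differences of up to about 1 log2 unit for most factors and more for Bcl11a. Of the 9 genes, only Tcf4 after LPS had KO arrays (1.76 and 1.78) that did not overlap the WT arrays (1.20 and 1.61), against 21.2% of all genes, with a difference of 0.36 ± 0.36 (limma adjusted p = 1). The change of Klf4 with LPS differed between genotypes by -0.19 (interval -1.14 to 0.77), that of Cebpa by -0.02 (-1.96 to 1.91) and that of Tcf4 by 0.41 (-0.78 to 1.61).

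**Figure D4:**
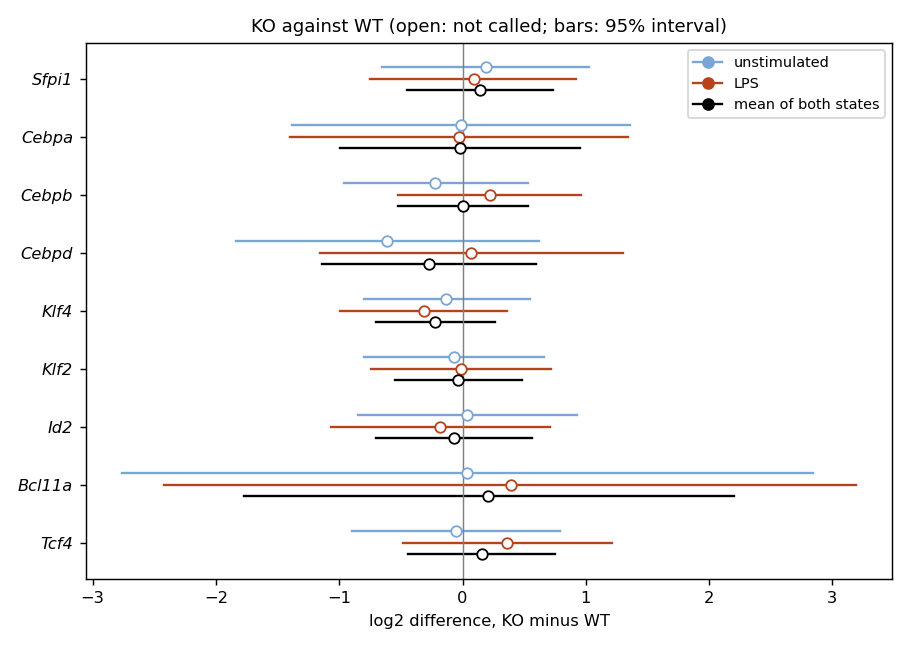
Fitted log2 difference between KO and WT (horizontal axis, KO minus WT) of the 9 genes before LPS, after LPS and over both states, with 95% intervals. All points are open, since none passed adjusted p under 0.05, and every interval spans 0.

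Promoter sequence is shown for 3 factors that were called, Klf4 and Cebpa, which fell, and Cebpb, which rose in KO. The 250 bases before the RefSeq start site (GRCm38.p6) are given in the direction of transcription. Capitals mark TGACG, a short motif bound by CREB and ATF factors, on either strand, where the other strand reads CGTCA. RefSeq promoter entries were used for 6 of the 9 genes. Sfpi1, Cebpd and Tcf4 were left out, so no promoter is shown for Tcf4, although it was called higher in both genotypes. Klf4 lies on the minus strand at chr4:55532476-55532725, Cebpa on the plus strand at chr7:35119043-35119292 and Cebpb on the plus strand at chr2:167688665-167688914.
Klf4: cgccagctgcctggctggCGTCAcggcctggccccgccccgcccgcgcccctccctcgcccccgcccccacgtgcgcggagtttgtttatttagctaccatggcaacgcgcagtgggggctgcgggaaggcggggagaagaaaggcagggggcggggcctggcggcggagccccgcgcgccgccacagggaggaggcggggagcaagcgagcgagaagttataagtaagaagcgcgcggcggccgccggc
Cebpa: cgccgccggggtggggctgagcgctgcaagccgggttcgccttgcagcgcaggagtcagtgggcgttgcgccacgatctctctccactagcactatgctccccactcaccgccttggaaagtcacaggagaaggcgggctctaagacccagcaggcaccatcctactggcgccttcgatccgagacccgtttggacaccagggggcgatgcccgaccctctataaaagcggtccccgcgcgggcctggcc
Cebpb: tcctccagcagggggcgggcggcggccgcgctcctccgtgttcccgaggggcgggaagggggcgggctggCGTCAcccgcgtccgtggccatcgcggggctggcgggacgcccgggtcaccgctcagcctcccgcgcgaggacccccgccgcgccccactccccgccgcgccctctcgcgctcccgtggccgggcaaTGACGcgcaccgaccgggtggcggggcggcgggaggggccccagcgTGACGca
The motif occurred 3 times in Cebpb, 1 time in Klf4, 1 time in Klf2 and not in Cebpa, Id2 or Bcl11a, and 17.8% of 32851 promoters of this length hold it. The GC box GGGCGG was found 5 times in Cebpb, 4 times in Klf4, 2 times each in Klf2 and Bcl11a, 1 time in Id2 and not in Cebpa, against 32.7% of promoters with at least 1. Cebpa alone of the 6 held TATAAA, present in 12.4%. None held the C/EBP core TTGCNNAA (9.56% of promoters) or the PU.1 core GGAAGT (19.7%) in this window. A match describes these letters and is not a binding site by itself.

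Across the 8 arrays Cebpa, Klf4, Cebpb and Tcf4 varied together, Cebpa and Klf4 with r = 0.96, Cebpb and Tcf4 with 0.92, and Klf4 and Tcf4 with -0.96. The arrays form 2 clusters by state, so these values describe the LPS contrast and carry no test. Among 12325 genes well above background everywhere, the profiles most like Klf4 were H2-DMa, which loads peptide onto MHC class II (r = 0.998), and Mmp19, a matrix protease (0.9978). Those most like Cebpa were Sh2d1b1 (0.9965) and 6430548M08Rik (0.9951), and Zfp1 (0.9968) and Efha2 (0.994) were most like Cebpb. For Tcf4 they were Eif2c3 (0.9924) and Katna1 (0.991). Klf4 had 1567 genes at r over 0.9 and Cebpa 1367, whereas Id2 had 28, Sfpi1 78 and Klf2 93.

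Relatives and reported targets of the 9 factors were then followed in 9 lists, which are described by counts and medians beside the 20.2% and 20.8% of all genes called. Among 9 further Kruppel-like factors, 2 fell in each genotype and none rose, with medians of -0.18 and -0.10. With normexp background correction none was called in WT and 1 fell in KO. Klf10, an early TGF-beta response gene, fell by 2.51 ± 0.59 in WT and 2.44 ± 0.59 in KO (limma adjusted p = 0.0273 and 0.0289). Klf9, a glucocorticoid-responsive factor, fell by 1.58 ± 0.39 and 2.45 ± 0.39 (adjusted p = 0.0321 and 0.00661). Klf6, a close relative, changed by 0.65 ± 0.37 and 0.67 ± 0.37, not called. Of 6 tested genes reported as KLF2 or KLF4 targets, 3 fell and none rose in each genotype, with medians of -2.38 and -2.93, or -2.64 in KO with dim genes at their bound. The medians were nearer 0 with normexp background correction, at -1.33 and -1.18 with 2 genes lower in each genotype, and at -1.33 and -1.68 with high local backgrounds replaced. Ccr2, the receptor that brings monocytes out of the marrow, read 4.19 and 5.59 in WT unstimulated and -0.97 and -1.16 in WT LPS, a change of -5.96 ± 0.48 (adjusted p = 0.000696), and changed by -6.55 ± 0.48 in KO. The integrin Itgb7 fell by 4.04 ± 1 in WT and fell by 4.23 ± 1 in KO. Thbd, the anticoagulant receptor thrombomodulin, was not well above background on any LPS array and was at least 16.8-fold lower in WT and at least 12.5-fold lower in KO. A lower bound of this kind sets the bright group's mean against the higher of the dim signal and the lowest signal well above background on that array.

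The C/EBP lists split between relatives and targets. Of 6 tested relatives none was called in WT by limma, where 3 had an unadjusted p under 0.05, and 2 rose in KO. With normexp background correction and high local backgrounds replaced, 2 rose in WT too, and without that replacement none was called in either genotype. The basic leucine zipper factor Nfil3 changed by 1.5 ± 0.52 in WT (limma adjusted p = 0.0881) and rose by 2.12 ± 0.52 in KO (0.0299). Ddit3, which encodes the stress factor CHOP, changed by 0.98 ± 0.29 in WT (0.0553) and rose by 1.19 ± 0.29 in KO (0.0292). Dbp had the largest change in WT, -2.47 ± 0.86 (0.0914). Among 14 tested inflammatory genes reported as C/EBP targets, 11 rose and none fell in each genotype, with medians of 6.85 and 7.26, or 5.53 and 6.23 with dim genes at their bound. The cytokine Il6 rose from -4.36 and -4.34 to 8.54 and 8.22 in WT, a change of 12.73 ± 0.25, and by 13.17 ± 0.25 in KO. Il12b, a subunit of IL-12, was at least 2550-fold higher in WT and at least 4740-fold higher in KO. Lcn2, an iron-binding acute phase protein, was at least 1570-fold and 2490-fold higher. Ptgs2, the inducible cyclooxygenase, rose by 11.01 ± 0.93 and 11.38 ± 0.93. Ptgs2 was well above background on 1 of 2 unstimulated arrays in each genotype, and Il6 on 1 of 2 in WT, so these fitted changes rest in part on dim signals. These genes rose while Cebpa fell and Cebpd was not called. Cebpb changed by 0.79 in WT, not called, and rose by 1.23 in KO. A link between these factors and the listed genes was not tested.

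**Figure D5:**
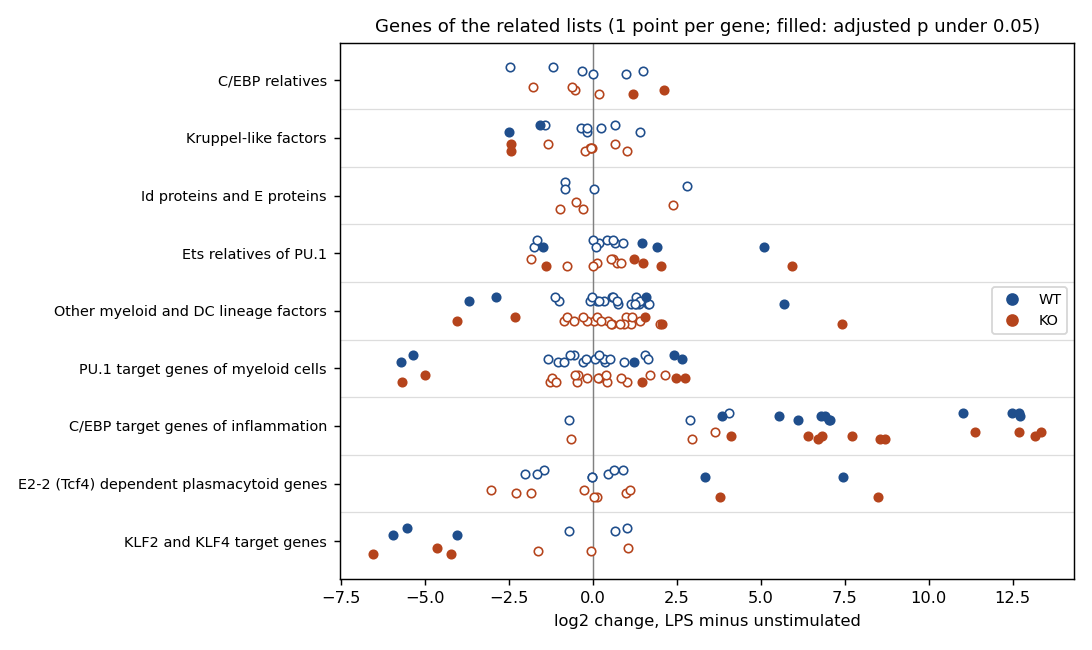
Fitted log2 change with LPS (horizontal axis) of each tested gene in the 9 lists of relatives and reported targets, WT in the upper and KO in the lower row of each list, filled where adjusted p was under 0.05. The C/EBP target genes lie to the right, with 11 of 14 called higher, and the called KLF target genes to the left. Fitted values of genes that were dim in 1 state are not bounds.

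Of 13 tested Ets relatives of PU.1, 3 rose and 1 fell in WT and 4 rose and 1 fell in KO, with medians of 0.43 and 0.60. Spic, the Ets factor of iron-recycling macrophages, read -1.84 and -1.32 in WT unstimulated and 1.82 and 5.20 in WT LPS, so that the LPS arrays themselves differed widely. Its change was 5.09 ± 1.23 in WT (limma adjusted p = 0.0299) and 5.92 ± 1.23 in KO (0.0172). Ets2 rose by 1.91 ± 0.40 and 2.02 ± 0.40, Etv3 rose by 1.46 ± 0.39 and 1.49 ± 0.39, and Fli1 fell by 1.48 ± 0.27 and 1.39 ± 0.27. With median scaling 2 relatives rose in WT and 3 in KO. With normexp background correction 1 rose and none fell in each genotype, and the WT median was 0.12.

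Among 20 PU.1 target genes, 3 rose and 2 fell in each genotype, with medians of 0.12 and 0.17. The mannose receptor Mrc1 fell by 5.73 ± 0.51 in WT (limma adjusted p = 0.000969) and by 5.68 ± 0.51 in KO. The lectin receptor Cd209a was at least 11.4-fold lower in WT and fell by 5.01 ± 1 in KO, where 1 of 2 LPS arrays was well above background. The LPS co-receptor Cd14 rose by 2.65 ± 0.58 and 2.74 ± 0.58. The Fc receptor Fcgr1 rose by 2.40 ± 0.67 in WT (adjusted p = 0.047) and changed by 1.71 ± 0.67 in KO (0.123). Emr1, a macrophage surface receptor, changed by 1.63 ± 0.64 in WT (0.123) and rose by 2.48 ± 0.64 in KO (0.0356). The growth factor receptor genes Csf1r and Csf2ra were not called, with changes of -0.57 ± 0.36 and 0.36 ± 0.29 in WT. The median of this list in KO was -0.09 under quantile normalization and 0.00 under median scaling, so its direction depends on the scaling. With normexp background correction that median was -0.49, and in each genotype 1 gene fell and none rose. Mrc1, Cd209a, Fcgr1 and Emr1 also stand in the marker lists, as Ccr2 does among the monocyte markers.

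Of 23 other lineage factors, 2 rose and 2 fell in WT and 3 rose and 2 fell in KO, with medians of 0.73 and 0.55. With normexp background correction 1 rose and 1 fell in WT, and 1 rose in KO. Gfi1, a transcriptional repressor that acts in granulocyte development, rose by 5.70 ± 0.97 in WT (limma adjusted p = 0.00909) and was at least 78.2-fold higher in KO. It was well above background on 1 of the 2 WT unstimulated arrays. Myc fell by 3.70 ± 0.80 and 4.06 ± 0.80. Stat5a, a transducer of GM-CSF signals, rose by 1.58 ± 0.37 in WT and 1.55 ± 0.37 in KO, and Relb, a DC maturation factor of the NF-kB family, changed by 1.66 ± 0.49 in WT (0.0567) and rose by 2.06 ± 0.49 in KO (0.0277). Irf8, another DC lineage factor, changed by 1.63 ± 0.58 and 2 ± 0.58 and was not called.

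None of the 4 tested Id and E protein relatives was called in either genotype, with medians of -0.39 and -0.40 and 1 gene in each at an unadjusted p under 0.05 in limma. Id3, an inhibitor like Id2, had the largest change, 2.79 ± 1.55 in WT and 2.37 ± 1.55 in KO (limma adjusted p = 0.253 and 0.334). Tcf3, which encodes E2A, changed by -0.83 ± 0.39 and -0.97 ± 0.39. Of 10 tested genes reported to depend on E2-2, 2 rose and none fell in each genotype, with medians of 0.21 and 0.07; under median scaling 1 fell in KO. They were Irf7, which rose by 7.44 ± 0.61 in WT (adjusted p = 0.00075) and 8.49 ± 0.61 in KO, and Bst2, which rose by 3.35 ± 0.29 and 3.79 ± 0.29. Both are also known as interferon-inducible genes. The plasmacytoid genes Tlr9, Ccr9, Runx2 and Pacsin1 were not called. In the 9 lists together, 0 of 105 entries were called between KO and WT before LPS, after LPS or over both states, and 5, 0 and 2 had an unadjusted p under 0.05 in limma, as did 394, 187 and 411 of all genes tested.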

How the data were processed

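Gene expression was measured on 8 one-colour Agilent arrays of 60-base probes. Scans were quantified by the authors in Agilent Feature Extraction (10.5.1.1, per the file headers). The deposited intensity values are background-subtracted processed signals, mean signals and local backgrounds on a linear scale, with coordinates in mm9. Log2 values in the deposited series table differed from the log2 of the processed signal only by a shift of the whole array. The deposited spot flags, an other unit of 0 or 1, mark spots well above background and outlying spots. The labels give 4 groups of 2 arrays, and the scan names place 4 arrays on each of 2 slides.

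Spots marked as outlying were left out. The log2 processed signal was reduced by the 75th percentile of its array. A probe was kept if some group had it well above background on its 2 arrays (23738 probes), and the probe with the highest mean represented each gene name. A mean per group was fitted with limma 3.58.1 (R 4.3.3), with 4 residual degrees of freedom. The code of the fit was tried on simulated arrays with known changes. Those arrays were drawn independently, so that trial does not cover deviations shared between the real arrays. Members and lists were chosen with earlier results of these data known. Each member was named in every comparison; of each list, at most 4 called genes with the largest change were named, with a few uncalled genes chosen after their values were seen. Sequences came from RefSeq tables and the array files, without a genome. Same-numbered arrays were not taken as pairs. The values of 1 called list gene are not reported here.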

Additional observations from a re-analysis of the deposited data

How the results depend on the processing

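Klf4 was called in both genotypes under every alternative, 14 settings and 8 single-array omissions for each, with log2 changes from -4.66 to -4.16 in WT and from -4.88 to -4.38 in KO. The count of called factors was 1 to 3 in WT and 1 to 4 in KO when 1 array was left out. It fell to 1 in KO within slide 2, which holds 1 unstimulated KO array, and it was 2 in both genotypes with normexp background correction. On KO LPS array 2, 22 spots had a local background above their signal, by up to 133000, and that fit left the median spot at 1860 against 91 to 130 on the others. It called 680 and 936 genes in all, 61% and 62% of them higher against 47% and 49.7%. With those backgrounds replaced by the array median, an alternative chosen after seeing the data, the counts were 3 and 4. In the main fit Klf2 changed by 0.01 in WT and 0.08 in KO, neither called. With the mean of its probes Klf2 was called lower, at -1.49 in WT and -1.37 in KO. The 2 slides could be set as a block, which gave 2 and 3 called factors. Median scaling moved the median of all genes in KO from 0.05 to -0.12. The labels do not say that same-numbered arrays are pairs. Over the pairs of groups, their deviations correlated with r from 0.01 to 0.69. The lowest was between WT unstimulated and KO LPS, and r between the states was 0.13 within WT and 0.2 within KO. The value was 0.50 between WT and KO unstimulated and 0.69 between WT and KO LPS, and the main fit takes no account of this. With the replicate block, 4 factors were called in WT and 5 in KO, adding Bcl11a at -1.26 (limma adjusted p = 0.0128) and -0.91 (0.0353), and 4154 and 4187 genes in all against 3106 and 3208. No alternative called a factor between genotypes. With 2 arrays per group, precision is limited by their number.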
